A study of Mus musculus with 9 samples.

Results

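Cells make cholesterol and fatty acids from acetyl-CoA, and 31 genes of these routes were chosen by name: enzymes of the mevalonate arm and of the later sterol steps, the SREBP regulators, 2 sterol-binding proteins, and enzymes of fatty acid synthesis, elongation and desaturation. Of these, 30 had at least 1 probe set that the platform annotation gives to that gene alone, among 18193 such genes. The remaining 1 was not analysed here. Each gene was read from its brightest probe set, by mean log2 value, and all 30 passed the filter on dim genes that left 12347 genes for testing.

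The study measured RNA on 9 Affymetrix arrays of sorted granulocyte-macrophage progenitors (GMPs), the marrow cells from which neutrophils and monocytes arise. There were 3 groups of 3 arrays, labelled wild type (wt), heterozygous (het, Dicer -/wt) and null (Dicer fl/fl) for Dicer1, which encodes the ribonuclease that cuts microRNA precursors. All groups carried Cebpa-Cre, which removes floxed Dicer1 in cells that have expressed the myeloid gene Cebpa, and the R26-LSL-Eyfp reporter that the same Cre switches on. The donor cells came from fetal livers at embryonic day 13.5, the recipients were C57BL/6 mice aged 6 to 8 weeks that had received 8.5 Gy, and marrow was taken 6 to 10 weeks later. Several recipients could carry cells of the same fetal liver, and the labels do not tell which arrays share a donor. The p-values therefore measure only how much these samples vary, which may be partly technical. In bulk RNA, fewer cells of a type and less RNA per cell cannot be told apart.

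In mammals the SREBP proteins, made from Srebf1 and Srebf2, drive transcription of most of these enzymes. Scap carries them from the endoplasmic reticulum for cleavage when sterols are low, and the Insig proteins hold Scap back when sterols are high. Dividing progenitors need cholesterol and unsaturated fatty acids for new membranes, and the mevalonate arm also supplies the lipid anchors of small GTPases.

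Signals are MAS5 intensities in arbitrary units, scaled before deposit so that every array has a trimmed mean of 100. Differences are on the scale log2(signal + 12), which understates the change of dim genes, with a standard error (SE) and a p adjusted over 12347 genes from limma. A gene is called, and is said to have risen or fallen, at an adjusted p under 0.05. The Dicer1 signal was 223 to 244 on wt, 169 to 201 on het and 97.2 to 115 on null arrays, and the fall in null against wt was -1.07 (SE 0.11, limma adjusted p = 1.88e-05). The GMP markers Ctsg and Mpo read 7547 to 9107 and 7201 to 8989 over the arrays. Of the 9 GMP markers 1 rose in null against wt and 0 fell, beside 7.6% and 8.09% of all genes. The marker that rose was Gfi1, a myeloid transcription factor, with 0.59 against wt (adjusted p = 0.000529) and 0.67 against het (adjusted p = 0.000235). Elane and Cebpa gave -0.28 and -0.33 in null against wt (adjusted p = 0.0716 and 0.0926). The X-linked gene Xist read 2610 on wt replicate 2 and 16.4 to 30.2 on the others, and the Y-linked gene Eif2s3y read 1.13 there and 622 to 859 on the others, although the labels call every sample female. Results that include wt arrays are therefore also given without it where the call ends.

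Calls among the 30 genes went in both directions in null cells. In null against wt, 2 of 30 rose, Hmgcs1 and Stard4, and 2 fell, Ebp and Elovl6, which is 13.3% of the genes beside 15.7% of all genes tested (7.6% rose and 8.09% fell). An unadjusted p under 0.05 was found for 6 of the 30, beside 29% of all genes. The median of the 30 differences was 0.04 beside -0.04 over all genes, and they ran from -0.53 to 0.67. In het against wt, 2 of 30 rose, Fdps and Stard4, and 0 fell, beside 1.39% of all genes called (0.697% in each direction). Here 8 of the 30 had an unadjusted p under 0.05, beside 12.9% of all genes. In null against het, 2 rose, Hmgcs1 and Elovl5, and 6 fell, Fdps, Msmo1, Ebp, Tmem97, Fasn and Elovl6, which is 26.7% of the genes beside 14.3% of all (6.84% rose and 7.49% fell). Here 15 of the 30 had an unadjusted p under 0.05, beside 27.9% of all genes.

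**Figure D1:**
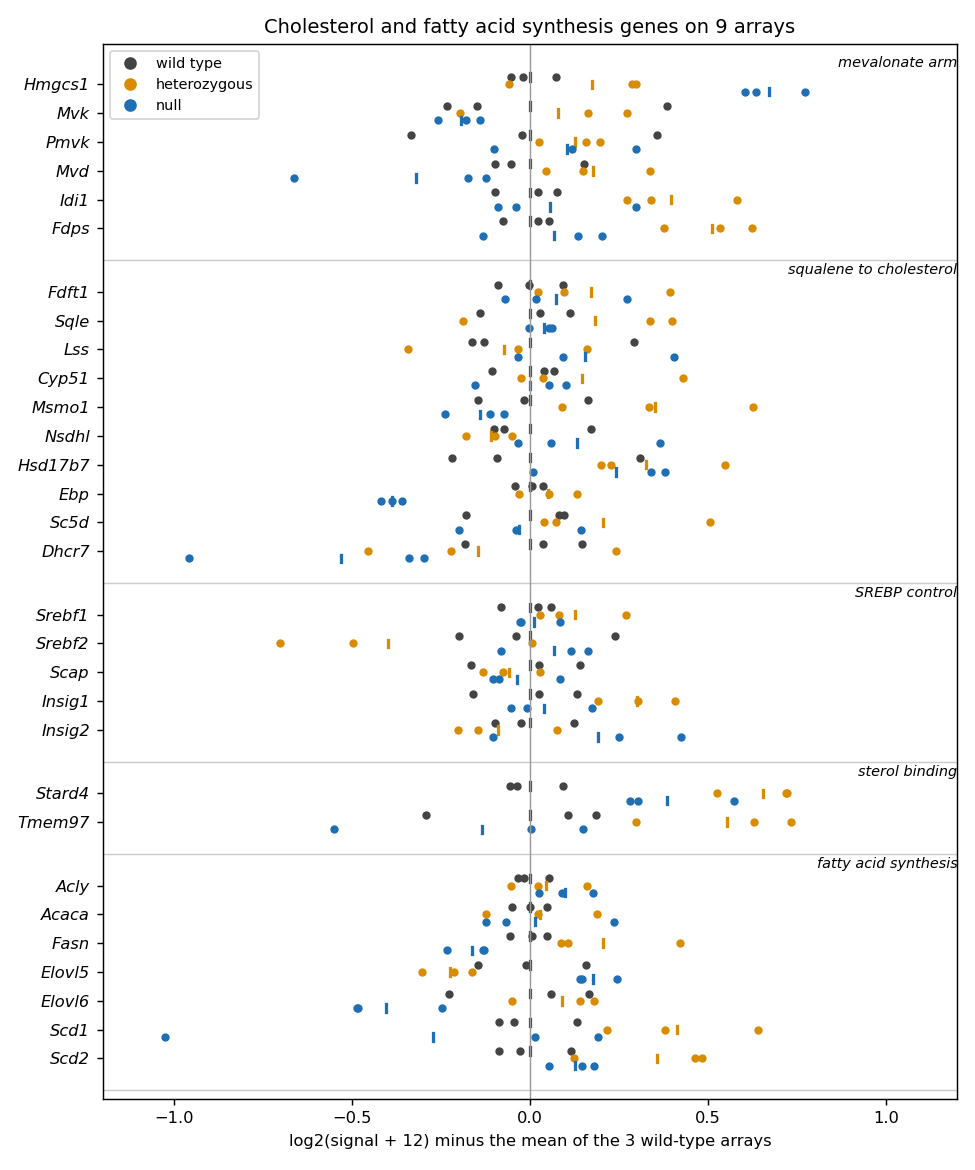
Each point is 1 array and each bar a group mean, shown as log2(signal + 12) minus the mean of the 3 wild-type arrays, for the 30 genes ordered by role. Null points of Hmgcs1 lie to the right of the other arrays, and those of Ebp to the left. Heterozygous points lie to the right of all others for Fdps, and to the right of the wild-type points for Stard4.

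The 3 comparisons share arrays in pairs, so the het arrays enter both het against wt and null against het. In het against wt, 23 of the 30 differences were above 0, with a median of 0.16 beside -0.01 over all genes. In null against het, 22 of the 30 were below 0, with a median of -0.19 beside -0.03. The mean log2 value of the 30 genes was 7.39 to 7.40 on wt, 7.49 to 7.61 on het and 7.30 to 7.45 on null arrays, so the 3 het arrays stood above all others. By role this held for the mevalonate arm, the sterol-binding proteins and the fatty acid genes. The enzymes from squalene to cholesterol overlapped, at 6.96 to 7.02 on wt, 7.01 to 7.26 on het and 6.87 to 7.03 on null arrays. The SREBP regulators overlapped too. Other features of the arrays differed between groups too. The array's 18S ribosomal RNA control, at its 5′ end, gave 2548 to 3128 on het arrays, 907 to 1932 on wt and 1338 to 1830 on null arrays, so the het arrays stood above all others. The sum of stress genes was instead highest on the wt arrays. The sum of late neutrophil genes was highest on wt replicate 2, and null replicate 1 lay within the wt range. The summed signal of 9 immediate early and heat shock genes was 5167 to 6155 on wt, 997 to 1428 on het and 703 to 1084 on null arrays, with 7 of 9 lower in null and 4 of 9 lower in het against wt. That of 7 late neutrophil genes was 727 to 1543, 193 to 347 and 254 to 735, with 3 of the 6 tested lower in het against wt. Of all genes tested 8.09% fell in null and 0.697% in het against wt. The part of these features in the results was not tested. The summed signal of 9 cell cycle genes was 18454 to 19669, 18410 to 18903 and 18974 to 20155, with 0 of 9 called in het against wt and 1 higher in null against wt.

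**Figure D2:**
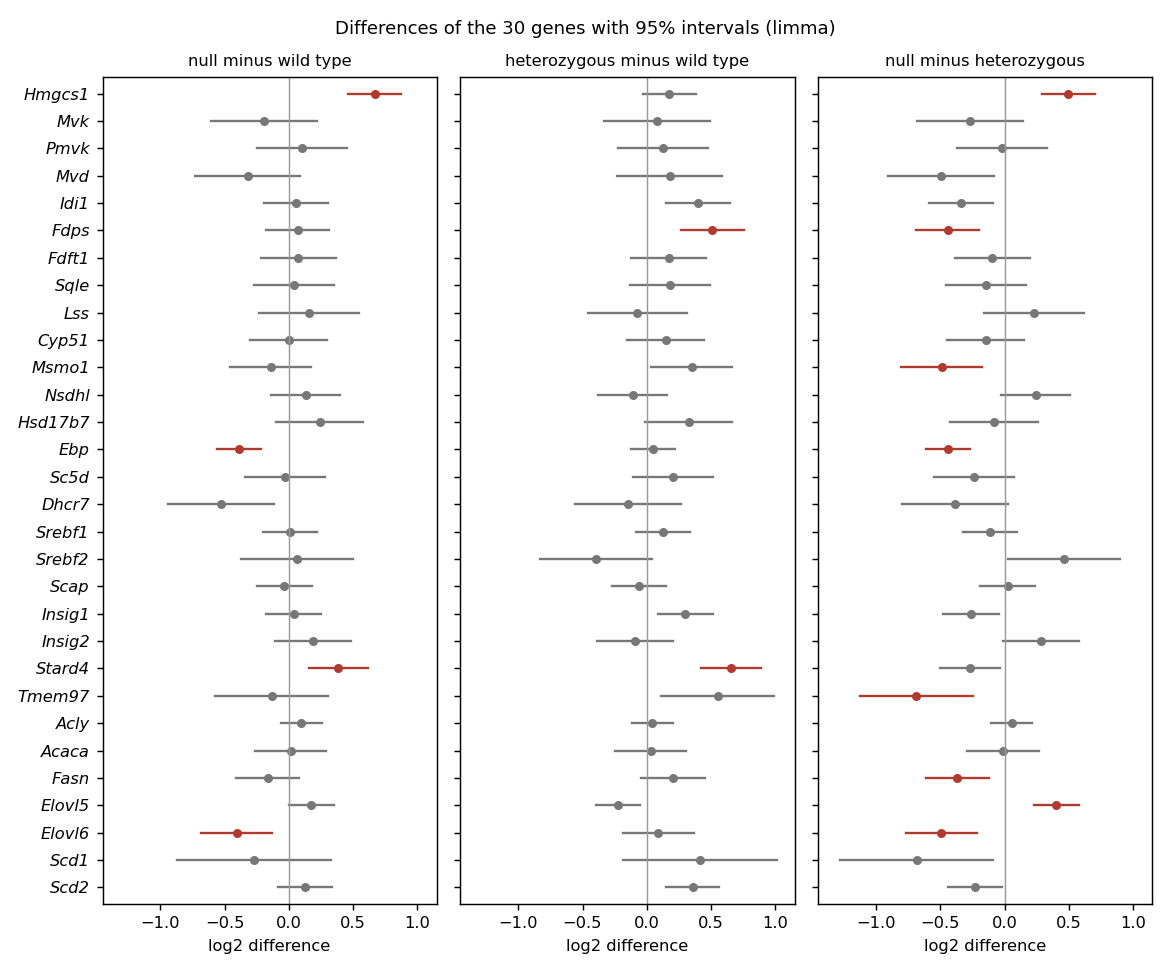
Points are log2 differences of the 30 genes in the 3 comparisons, lines are 95% intervals from limma, and red marks an adjusted p under 0.05. The differences of null minus heterozygous lie mostly below 0, with Hmgcs1 and Elovl5 on the other side.

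Hmgcs1, the cytosolic synthase that condenses acetoacetyl-CoA to HMG-CoA at the head of the mevalonate arm, had the largest difference of the 30 in null against wt. Its signals were 934, 1021 and 956 on wt arrays, 930, 1194 and 1185 on het arrays, and 1480, 1513 and 1663 on null arrays. The null arrays lay above all the others, and the wt and het arrays overlapped. The rise against wt was 0.67 (SE 0.10, limma adjusted p = 0.000424), and that against het was 0.50 (adjusted p = 0.00386), and het against wt gave 0.17 (adjusted p = 0.485). Of its 4 other probe sets, those reading 776 and 611 in wt rose by 0.67 and 0.64 in null against wt, in a fit over probe sets (adjusted p = 0.00138 and 0.00125). The dim ones, reading 83.1 and 22.5, gave 0.09 and -0.45 and were not called. With all 5 averaged the rises were 0.32 against wt and 0.30 against het (adjusted p = 0.0252 and 0.0352).

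The other steps of the mevalonate arm were not called in null against wt. Mvk and Pmvk, the kinases, gave -0.19 (95% interval -0.61 to 0.22) and 0.10 (-0.25 to 0.46) in null against wt, and Mvd, the decarboxylase, gave -0.32 (-0.73 to 0.09). Mvd read 21.5 to 27.8 on wt and 10.6 to 20.9 on null arrays. Those arrays did not overlap, and the adjusted p was 0.301. Idi1, the isomerase that makes dimethylallyl diphosphate, read 284 to 322 on wt, 370 to 462 on het and 286 to 377 on null arrays. Its het arrays lay above the wt arrays, with 0.40 in het against wt (adjusted p = 0.133). Null against het gave -0.34 (adjusted p = 0.0666), or -0.46 without null replicate 3 (adjusted p = 0.0226). The other Idi1 probe set read 233 to 241 on wt and 224 to 358 on het arrays, which overlapped. In a fit over probe sets it gave 0.26 in het against wt and -0.08 in null against het (adjusted p = 0.609 and 0.821).

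Fdps, which builds farnesyl diphosphate for sterols and prenylation, was high in het cells. Its signals were 156, 144 and 159 on wt, 202, 227 and 242 on het, and 138, 169 and 178 on null arrays. Every het array lay above every wt and null array, and wt and null overlapped. It rose by 0.51 in het against wt (SE 0.11, limma adjusted p = 0.0411) and fell in null against het by -0.44 (adjusted p = 0.0186), while null against wt gave 0.07 (95% interval -0.18 to 0.31). Both calls lay near the threshold. The het rise was not called without any 1 of the wt or het arrays or without null replicate 2, with 0.45 to 0.58 and adjusted p from 0.0506 (without het replicate 1) to 0.176 (without het replicate 3). The difference of null from het was not called without null replicate 1 (-0.34, adjusted p = 0.0804), het replicate 2 (-0.43, adjusted p = 0.0642) or het replicate 3 (-0.39, adjusted p = 0.0714).

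Among the 10 enzymes from squalene to cholesterol, 1 fell and 0 rose in null against wt, 0 were called in het against wt, and 2 fell in null against het. Of all genes tested 15.7%, 1.39% and 14.3% were called in these comparisons. Ebp, the isomerase that shifts the sterol double bond and lies on the X chromosome, read 530, 543 and 512 on wt, 580, 548 and 516 on het, and 401, 392 and 409 on null arrays. The null arrays lay below all the others and within 17 units of each other. Ebp fell by -0.39 in null against wt (SE 0.08, adjusted p = 0.00477) and by -0.44 in null against het (adjusted p = 0.00255). Without wt replicate 2, whose X-linked Xist stood apart, the first difference was -0.37 (adjusted p = 0.0173). Nsdhl, the other X-linked enzyme of the list, a sterol dehydrogenase of C4 demethylation, gave 0.13 in null against wt (adjusted p = 0.547).

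Dhcr7, the last reductase before cholesterol, read 123 to 158 on wt, 100 to 170 on het and 67.2 to 113 on null arrays. The null and wt arrays did not overlap, and the difference was -0.53 (SE 0.19, adjusted p = 0.0782), past an unadjusted p of 0.05 but not called. Msmo1, the C4-methyl oxidase, read 69.8, 77.5 and 89.3 on wt, 84.3, 102 and 128 on het, and 71.7, 64.7 and 74 on null arrays. Its het arrays lay above the null arrays and overlapped wt, and it fell by -0.49 in null against het (SE 0.15, adjusted p = 0.0371). The call ended without any 1 of the null arrays or without het replicate 2 or 3, with -0.53 to -0.35 and adjusted p from 0.0693 (without null replicate 3) to 0.152 (without het replicate 3). In all, 10 of 20 alternatives ended it, among them quantile or cyclic loess normalization, no filter and no intensity trend. The remaining enzymes were not called in any comparison: Fdft1 and Sqle, which make squalene and its epoxide, Lss, the cyclase, Cyp51, the demethylase, Hsd17b7, a ketosteroid reductase, and Sc5d, a desaturase. Their differences ran from -0.03 to 0.24 in null against wt. Cyp51 gave 0.0003 there with a 95% interval of -0.30 to 0.30.

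The SREBP regulators were not called in any comparison. Srebf1 read 194 to 215 on wt, 210 to 250 on het and 202 to 219 on null arrays, with a difference of 0.01 in null against wt (95% interval -0.20 to 0.22). Scap, the escort protein, gave -0.04 (-0.25 to 0.18). Insig1, itself an SREBP target that retains Scap, read 375 to 462 on wt, 481 to 561 on het and 405 to 476 on null arrays. Its het arrays lay above all the others, with 0.30 in het against wt (adjusted p = 0.202) and -0.26 in null against het (adjusted p = 0.102). Insig2, the second retention protein, gave 0.19 in null against wt (adjusted p = 0.406).

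Srebf2, which encodes the SREBP that mainly serves cholesterol genes, was dim at 23.9 to 36.7 on wt, 13.3 to 29.4 on het and 27 to 34.2 on null arrays. The groups overlapped, with 0.07 in null against wt (95% interval -0.37 to 0.50). Null against het gave 0.46 (adjusted p = 0.152), or 0.67 without het replicate 3 (adjusted p = 0.0493). A second Srebf2 probe set was about as dim, with mean signals of 24.4 on wt, 23.8 on het and 22.2 on null arrays. It did not show this difference. Its own null minus het value was -0.08 (limma adjusted p = 0.837, each probe set tested separately). Srebf2 also hosts a microRNA. The Mir33 hairpin at chr15:82198122-82198190 lies on the plus strand inside the Srebf2 gene, chr15:82147269-82205379 (RefSeq, GRCm38.p6). Mature miR-33 needs Dicer1 and is known for repressing Abca1 and genes of fatty acid oxidation. Its arms are shown because a list of its described targets is compared further on, with the seed, bases 2 to 8, in capitals. Mature microRNAs were not measured on these arrays.
miR-33-5p: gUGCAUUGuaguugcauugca
miR-33-3p: cAAUGUUUccacagugcaucac

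Both sterol-binding proteins had their highest mean signal in het cells. Stard4, a carrier that moves cholesterol between membranes, read 163, 160 and 179 on wt, 245, 282 and 283 on het, and 209, 205 and 254 on null arrays. All 6 het and null arrays lay above the wt arrays, and het and null overlapped. The rise in het against wt was 0.65 (SE 0.11, limma adjusted p = 0.00521), and that in null against wt was 0.39 (adjusted p = 0.027). The second rise was not called without wt replicate 1 (0.37, adjusted p = 0.0729), wt replicate 2 (0.36, adjusted p = 0.0761) or null replicate 3 (0.29, adjusted p = 0.127). Another probe set of Stard4, reading 131, 120 and 108 in wt, het and null cells, gave -0.26 in null against wt and was not called (adjusted p = 0.231). The remaining probe set gave 0.12 there (adjusted p = 0.653), and with all probe sets averaged neither rise was called.

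Tmem97, a sterol-regulated membrane protein of the endoplasmic reticulum, read 37.3, 40.2 and 25.4 on wt, 58.9, 64.1 and 44.4 on het, and 19.3, 38.8 and 33.9 on null arrays. The het arrays lay above all the others. It fell by -0.69 in null against het (SE 0.20, adjusted p = 0.0371), and het against wt gave 0.55 (adjusted p = 0.252). The fall was not called without null replicate 1 (-0.48, adjusted p = 0.146), null replicate 3 (-0.75, adjusted p = 0.0605), het replicate 1 (-0.65, adjusted p = 0.121) or het replicate 2 (-0.60, adjusted p = 0.136). In all, 9 of 21 alternatives ended the call, among them quantile or cyclic loess normalization, no filter and no intensity trend.

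**Figure D3:**
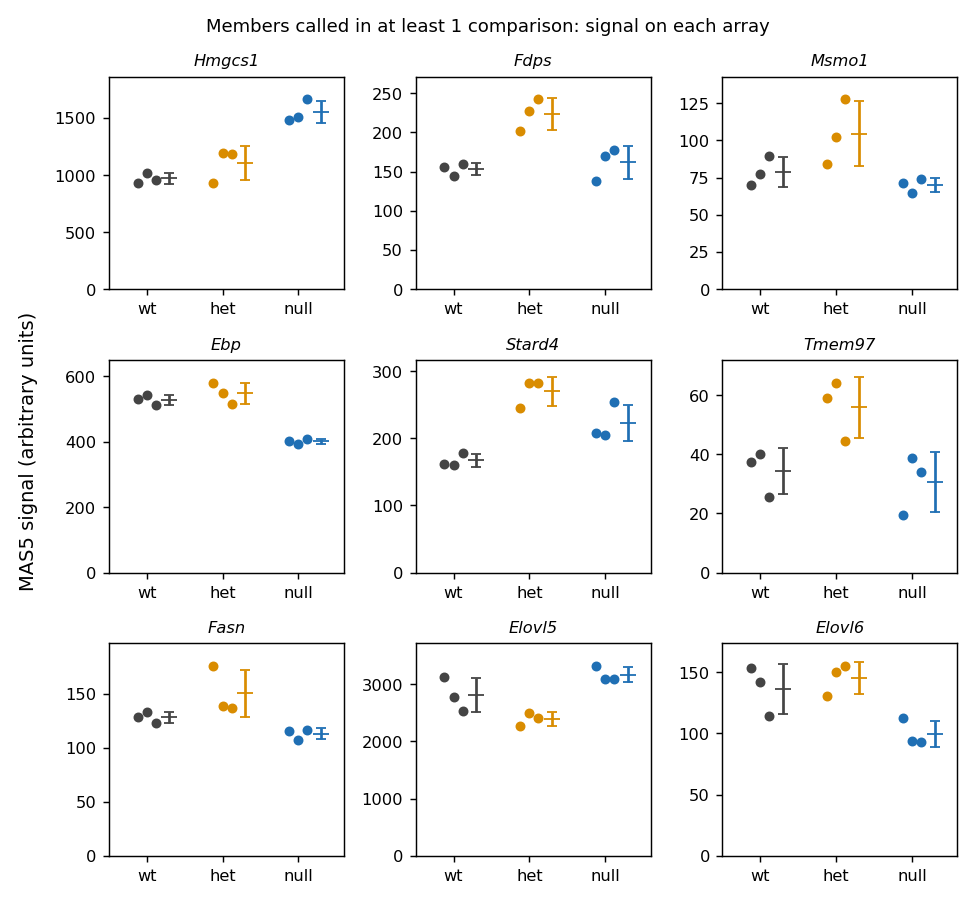
Each panel plots the MAS5 signal of 1 gene called in at least 1 comparison, with a point per array and the group mean with its SD (n = 3) beside the points, on axes that start at 0. Null points of Hmgcs1 lie at 1480 to 1663, and those of Ebp at 392 to 409.

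Of the 7 fatty acid genes 0 rose and 1 fell in null against wt, beside 15.7% of all genes called, and 1 rose and 2 fell in null against het, beside 14.3%. Elovl5, which elongates polyunsaturated fatty acids, read 3117, 2774 and 2525 on wt, 2265, 2494 and 2411 on het, and 3314, 3081 and 3091 on null arrays. The het arrays lay below all the others, and wt and null overlapped. It rose by 0.40 in null against het (SE 0.08, adjusted p = 0.00455), with 0.18 in null against wt (adjusted p = 0.162) and -0.23 in het against wt (adjusted p = 0.232). The other Elovl5 probe set read 1163 to 1350 on wt, 1163 to 1238 on het and 1312 to 1526 on null arrays. Its het and wt arrays overlapped, and its null arrays lay above the het arrays. With probe sets tested singly, its null against het difference of 0.22 was not called (limma adjusted p = 0.108).

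Elovl6, which elongates the saturated chains made by fatty acid synthase, fell where Elovl5 rose. It read 154, 142 and 114 on wt, 131, 151 and 155 on het, and 112, 93.7 and 93.3 on null arrays. The null arrays lay below all the others. It fell by -0.41 in null against wt (SE 0.13, adjusted p = 0.0467) and by -0.49 in null against het (adjusted p = 0.0194). The first call stood just inside the threshold, and 15 of 21 alternatives ended it. Among them were those without wt replicate 1 or 2, het replicate 2 or 3, or null replicate 2 or 3, with -0.41 to -0.32 and adjusted p from 0.0565 to 0.161. The second ended without het replicate 2 or 3 or null replicate 2 or 3, with -0.47 to -0.45 and adjusted p from 0.0575 to 0.0713. It also ended with the probe sets averaged, at -0.27 (adjusted p = 0.213). Another Elovl6 probe set, reading 66.3 in wt, gave -0.24 in null against wt and -0.31 in null against het. Neither was called in a fit over probe sets (adjusted p = 0.305 and 0.192).

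Fasn, fatty acid synthase itself, read 129, 133 and 123 on wt, 175, 139 and 137 on het, and 116, 107 and 116 on null arrays. The 3 groups did not overlap, with het above wt and null below. It fell by -0.37 in null against het (SE 0.12, adjusted p = 0.0466), and the call ended without any 1 of the null arrays, het replicate 1 or 2, or wt replicate 1 or 3. Those values ran from -0.42 to -0.26, with adjusted p from 0.0577 (without wt replicate 1) to 0.187 (without het replicate 1). In all, 14 of 21 alternatives ended the call, among them quantile or cyclic loess normalization, no filter and no intensity trend. Acly, which supplies cytosolic acetyl-CoA, and Acaca, the carboxylase that makes malonyl-CoA, gave 0.10 and 0.02 in null against wt, with 95% intervals of -0.06 to 0.26 and -0.26 to 0.29.

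The stearoyl-CoA desaturases, which make monounsaturated fatty acids, had their highest mean signals in het cells and were not called. Scd2 read 904 to 1041 on wt, 1048 to 1346 on het and 998 to 1090 on null arrays. Its het and wt arrays did not overlap, with 0.36 in het against wt (adjusted p = 0.105), and 0.47 (adjusted p = 0.02) without het replicate 1. Null against het gave -0.23 (adjusted p = 0.14), or -0.35 without that array (adjusted p = 0.0263). Scd1 was dim, at 12 to 16 on wt and 17.7 to 27.8 on het arrays, and null replicate 1 read 0.559 beside 17.2 and 13.8 on the other null arrays.

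Arrays that did not overlap were counted for all genes too. The null and wt arrays did not overlap for 7 of the 30 genes, beside 33% of all genes, the het and wt arrays for 9 of 30, beside 18.3%, and the null and het arrays for 12 of 30, beside 32.7%. In het against wt, 8 of those 9 genes were higher in het cells, Idi1, Fdps, Insig1, Stard4, Tmem97, Fasn, Scd1 and Scd2, and Elovl5 was lower.

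Promoter sequence was compared because SREBPs are known to act beside the factor NF-Y, which binds the CCAAT box. RefSeq promoters (GRCm38.p6, 250 bases before to 50 after a start site) were found for 24 of the 30 genes. The CCAAT letters stood on either strand in 21 of the 24, beside 41.1% of 27025 genes. The sterol regulatory element word TCACNCCAC was found in 1 of the 24, Hmgcs1, beside 1.44% of all genes, and the E-box CACGTG in 6, beside 8.09%. The SRE and CCAAT words were together in 1 window for Hmgcs1 and for 0.529% of all genes. A match is a description of letters and shows no binding. Below are the promoters of Hmgcs1, which rose in null cells, Ebp, which fell, and Msmo1 and Elovl5, which fell and rose in null against het, with both kinds of word in capitals (ATTGG is CCAAT on the other strand). They lie at chr13:119690101-119690400 (plus strand), chrX:8193463-8193762 (minus), chr8:64733529-64733828 (minus) and chr9:77917115-77917414 (plus).
Hmgcs1: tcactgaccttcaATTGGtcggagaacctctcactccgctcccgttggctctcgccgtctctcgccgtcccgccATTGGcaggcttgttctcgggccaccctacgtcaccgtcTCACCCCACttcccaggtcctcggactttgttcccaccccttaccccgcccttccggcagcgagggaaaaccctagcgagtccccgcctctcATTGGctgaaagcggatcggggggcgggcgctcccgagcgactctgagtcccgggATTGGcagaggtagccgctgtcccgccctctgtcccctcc
Ebp: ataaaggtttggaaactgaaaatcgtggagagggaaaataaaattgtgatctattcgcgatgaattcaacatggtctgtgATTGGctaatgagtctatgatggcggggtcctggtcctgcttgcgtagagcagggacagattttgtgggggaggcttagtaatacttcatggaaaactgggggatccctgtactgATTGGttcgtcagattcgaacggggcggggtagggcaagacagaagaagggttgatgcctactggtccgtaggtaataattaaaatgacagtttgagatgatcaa
Msmo1: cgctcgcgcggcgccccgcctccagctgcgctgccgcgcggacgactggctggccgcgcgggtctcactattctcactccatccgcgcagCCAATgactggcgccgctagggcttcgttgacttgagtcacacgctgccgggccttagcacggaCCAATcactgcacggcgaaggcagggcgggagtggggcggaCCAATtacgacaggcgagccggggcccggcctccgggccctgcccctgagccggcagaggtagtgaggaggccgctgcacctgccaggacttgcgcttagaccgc
Elovl5: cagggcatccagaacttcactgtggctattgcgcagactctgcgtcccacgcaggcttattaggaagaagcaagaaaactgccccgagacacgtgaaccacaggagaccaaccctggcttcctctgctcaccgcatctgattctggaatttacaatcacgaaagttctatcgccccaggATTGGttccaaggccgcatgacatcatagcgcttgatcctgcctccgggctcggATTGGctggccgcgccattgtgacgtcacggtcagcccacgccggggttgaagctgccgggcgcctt
The SRE word of Hmgcs1 starts at position -137 from the start site. It has CCAAT letters on both sides, and the other promoters shown have CCAAT letters and no SRE word. Elovl6, which fell, has no CCAAT letters in its window.

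Other lipid genes were taken from lists by role, in null against wt, where 7.6% of all genes tested rose and 8.09% fell. Of 5 further mevalonate and sterol genes 1 rose and 1 fell. Cyb5r3, the reductase that feeds electrons to cytochrome b5 for desaturation, read 140 to 147 on wt, 181 to 189 on het and 229 to 264 on null arrays. The 3 groups did not overlap, and it rose by 0.72 (SE 0.09, limma adjusted p = 0.00022), although with its probe sets averaged the difference was 0.29 (adjusted p = 0.113). Tm7sf2, a sterol C14 reductase, read 41.1 to 60 on wt, 47.5 to 57.7 on het and 21.5 to 29.9 on null arrays. Its null arrays lay below all the others, and it fell by -0.76 (SE 0.16, adjusted p = 0.00562). Lbr, the nuclear envelope protein with the same enzyme activity, gave 0.20 (adjusted p = 0.0752), and Acat1, the mitochondrial thiolase, 0.22 (adjusted p = 0.0658).

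Of 6 genes that process or degrade the SREBP machinery 1 rose and 1 fell, beside 7.6% and 8.09% of all genes. Pgrmc1, an X-linked heme-binding protein that binds the sterol demethylase, read 695 to 872 on wt, 657 to 713 on het and 1250 to 1315 on null arrays. The null arrays lay above all the others. The rise against wt was 0.67 (SE 0.09, adjusted p = 0.000217), and that against het was 0.90 (adjusted p = 3.24e-05). Without wt replicate 2 the first value was 0.73. Ube2g2, a ubiquitin-conjugating enzyme of the endoplasmic reticulum, fell by -0.38 (adjusted p = 0.00866), and with its probe sets averaged gave -0.31 (adjusted p = 0.0929). Mbtps2, the site-2 protease that releases SREBPs, gave 0.24 in null against wt (adjusted p = 0.0995) and Rnf139, a sterol-sensing ubiquitin ligase, 0.29 (adjusted p = 0.0511). In null against het Mbtps2 rose by 0.41 (adjusted p = 0.00925). There 2 of the 6 genes rose and 1 fell, beside 6.84% and 7.49% of all genes. Of 7 further SREBP targets 0 rose and 1 fell in null against wt, beside 7.6% and 8.09% of all genes. The gene that fell was the phosphatidate phosphatase Lpin1 (-0.83, adjusted p = 0.00707), and Mmab, Pnpla3 and Me1 gave -0.48, -0.11 and 0.13 without being called.

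Of 8 genes of sterol export and its regulator LXR 3 rose and 0 fell in null against wt, beside 7.6% of all genes that rose and 8.09% that fell. Mylip, a ubiquitin ligase induced by LXR, read 127 to 182 on wt, 173 to 249 on het and 267 to 368 on null arrays. Its null arrays lay above all the others, with a rise of 0.94 (SE 0.16, adjusted p = 0.00117). Abca1, the cholesterol exporter, read 32.7, 40 and 29.9 on wt, 37.2, 32 and 21.1 on het, and 70.8, 56.3 and 59.4 on null arrays. Its null arrays lay above all the others, and it rose by 0.68 in null against wt (SE 0.17, adjusted p = 0.0163) and by 0.83 in null against het (adjusted p = 0.00609). Without null replicate 1 or wt replicate 3 the first was 0.60 or 0.62 (adjusted p = 0.0679 and 0.0616), and with its probe sets averaged 0.26 (adjusted p = 0.33). Lpcat3, which puts polyunsaturated chains into phospholipids, rose by 0.50 (adjusted p = 0.0191), and without wt replicate 2, null replicate 2 or null replicate 3 it was not called (adjusted p = 0.0748, 0.0575 and 0.0549). Npc1, the lysosomal cholesterol exporter, gave 0.37 (adjusted p = 0.0843).

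Of 23 further genes of fatty acid synthesis, elongation and activation 5 rose and 0 fell in null against wt, beside 7.6% and 8.09% of all genes. In null against het 3 rose and 3 fell, beside 6.84% and 7.49%. The 3 that fell were Elovl1 (-0.43), Hacd1 (-0.26) and Hacd3 (-0.29), with adjusted p = 0.00426, 0.0183 and 0.0373. Hacd2 and Hacd4 encode dehydratases of the elongation cycle. Hacd1 and Hacd3, of the same family, gave -0.05 and -0.10 in null against wt and were not called there. Hacd2 read 605 to 648 on wt, 844 to 890 on het and 930 to 1008 on null arrays. The 3 groups did not overlap, and it rose by 0.62 in null (SE 0.07, adjusted p = 9.72e-05) and by 0.44 in het cells (adjusted p = 0.00521) against wt. Hacd4 read 28.8 to 41.8 on wt, 29.6 to 50.5 on het and 70.5 to 112 on null arrays and rose by 1.18 in null against wt (SE 0.20, adjusted p = 0.00118). Acsl3 and Acsl4, ligases that activate fatty acids, rose by 0.82 and 0.72 (adjusted p = 0.000826 and 0.00119). Acsl4 gave 0.35 with its probe sets averaged (adjusted p = 0.0388). The elongase Elovl7 rose by 0.62 (adjusted p = 0.0133), or 0.51 without wt replicate 2 (adjusted p = 0.0524).

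**Figure D4:**
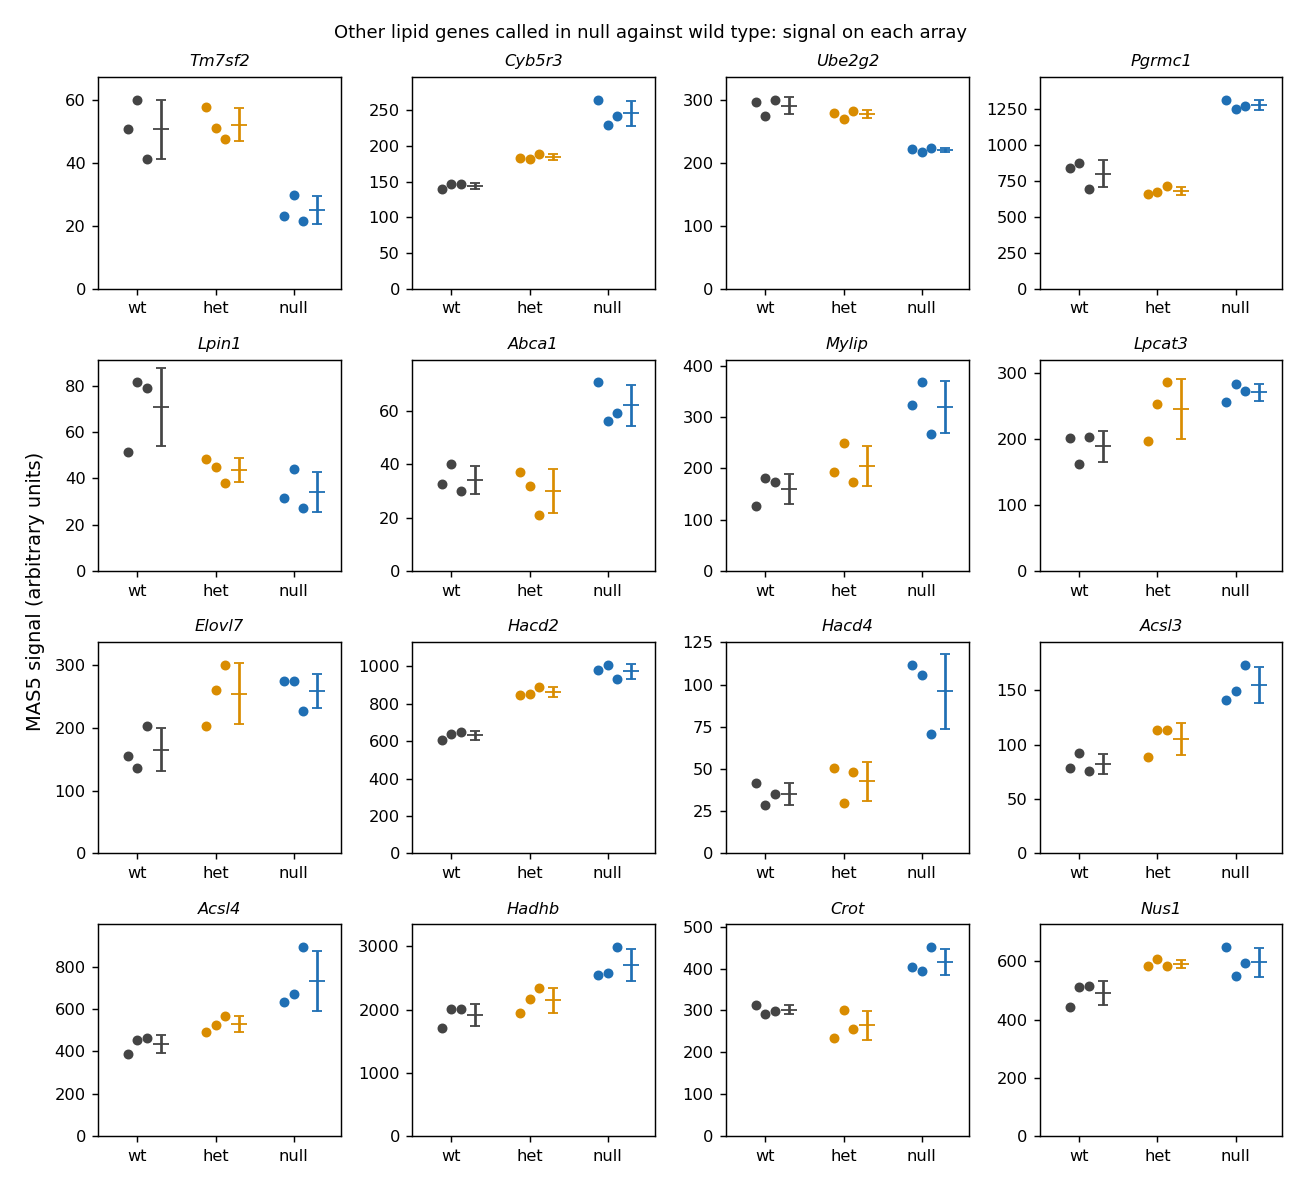
Each panel plots the MAS5 signal of 1 further lipid gene called in null against wild type, with a point per array and the group mean with its SD (n = 3), on axes that start at 0. Null arrays of Pgrmc1 lie at 1250 to 1315, and those of Tm7sf2 at 21.5 to 29.9.

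Of 13 fatty acid oxidation genes 2 rose and 0 fell in null against wt, which is 15.4% called beside 15.7% of all genes. The genes that rose were Hadhb (0.50, SE 0.09, adjusted p = 0.00275), a subunit of the mitochondrial trifunctional protein, and Crot (0.45, SE 0.10, adjusted p = 0.00859), a peroxisomal acyltransferase. With their probe sets averaged they gave 0.25 and 0.31 (adjusted p = 0.0517 and 0.066). Acadvl, the dehydrogenase of very long chains, gave -0.25 (adjusted p = 0.119) and Hadha, the partner subunit of Hadhb, -0.26 (adjusted p = 0.257). The list of described miR-33 targets, whose seed is shown beside Srebf2, overlaps these lists. In it 3 of 7 tested genes rose, Abca1, Hadhb and Crot, and 0 fell, beside 7.6% of all genes that rose. In null against het the same 3 genes rose, beside 6.84% of all genes. In het against wt 0 of 7 were called by limma, beside 1.39% of all genes, and 1 had an unadjusted p under 0.05, beside 12.9%. No test of the list against other genes was made.

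Markers of some other cells, but not of all, differed between genotypes as well. Their counts in null against wt stand beside 7.6% of all genes that rose and 8.09% that fell. The summed signal of 6 dendritic and MHC class II genes was 273 to 409 on wt, 291 to 418 on het and 148 to 182 on null arrays, with 2 of 6 lower in null against wt, and that of 5 B cell genes was 1152 to 1391, 1047 to 1155 and 523 to 608, led by Ighm. The B cell genes Pax5, Ebf1 and Cd79a were below the filter. The summed signal of 7 mast cell, basophil and eosinophil genes was 3673 to 5674, 3571 to 4072 and 4552 to 6588, with 2 higher and 1 lower in null against wt. Monocyte genes gave 2350 to 3655, 3640 to 4171 and 4105 to 4160, with 1 of 5 higher in null against wt, and erythroid genes 72.9 to 239, 112 to 179 and 81.4 to 129, with 0 of 3 tested called by limma and 0 with an unadjusted p under 0.05. T and NK cell genes gave 37.1 to 48.6, 31 to 32.6 and 23.3 to 33.4, with 1 gene tested and lower in null against wt. The adipocyte genes Adipoq, Cidec and Lep were all below the filter, with summed signals of 5.7 to 23.8 over the arrays. The part of these cells in the differences of lipid genes was not tested.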

How the data were processed

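RNA of 9 sorted samples was measured, 3 of each genotype, and the deposited values are signal intensities on a linear scale. Per the submitters' processing notes they came from MAS5, whose version is not given in the sources used here. The deposited intensities had a 2% trimmed mean of 100 on every array, so a shift of nearly all transcripts together would not show. Detection calls were not used here. Precision is limited by having 3 arrays a group.

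Of 45101 probe sets 64 controls were left out, 34945 had 1 gene symbol, 932 several and 9160 none. Symbols came from the platform annotation, of which 34741 Entrez identifiers matched RefSeq GRCm38.p6. Signals became log2(signal + 12), and genes whose mean lay below the 40th percentile over probe sets, a signal of 8.49, were left out. Linear models with moderated variances that follow a trend on intensity were fitted to the 9 arrays as 3 groups (limma 3.58.1, R 4.3.3), with 6 residual and 8.1 prior degrees of freedom, two-sided, adjusted by Benjamini-Hochberg over 12347 genes. It was tested on simulated arrays. An exact permutation test of 3 against 3 cannot go below 0.1.

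The members, lists and tests were chosen with earlier results of these data known. Genes are named by a rule: members called in any comparison or among the 4 smallest p of one, Dicer1, from each further lipid list the called genes and the 4 smallest p, and from each list of cell or state markers the brightest genes, of which few are printed; other members were named to account for all 30. Elovl1, Hacd1, Hacd3 and Dhdds were named for their calls in null against het. Other settings tried were the normalization, the pseudocount, the filter, the variance prior, the arrays fitted, array weights, the choice among probe sets and the replicate block, and each array was left out in turn.

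Same-numbered arrays of different groups were not treated as pairs, since their deviations from the group means did not all correlate. Some genes named in the lists were not analysed here.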

Additional observations from a re-analysis of the deposited data

How the results depend on the processing

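Results were recomputed under 21 alternatives, or 20 for Msmo1 in null against het and Ube2g2 in null against wt. The most variable probe set of Msmo1 and of Ube2g2 was too dim to be tested. Direction was followed for called members, the 4 members with the smallest p per comparison, and further lipid genes called in null against wt. None of these reversed, and the direction of the other genes named here was not followed. Of 14 calls of member genes over the comparisons, 5 held under every alternative: Hmgcs1 and Ebp in null against wt and in null against het, and Elovl5 in null against het. Leaving out single arrays gave 1258 to 1938 genes called in null against wt (main 1937), 99 to 169 in het against wt (main 172) and 1033 to 1897 in null against het (main 1770), and 2 to 4, 1 to 2 and 3 to 8 of the 30 members (main 4, 2 and 8). The gene counts moved by over 1.5 times without null replicate 3 (1258 and 1064 in null against wt and against het), het replicate 1 (1033 in null against het), and het replicate 2 or 3 (99 and 102 in het against wt). Without an intensity trend the counts were 1290, 83 and 1103 genes and 2, 1 and 5 members. With all probe sets averaged, 86 genes were called in het against wt, with 2 members in null against wt and 0 in het against wt. With no filter, 112 genes were called in het against wt, 1 member there and 5 in null against het. Quantile or cyclic loess normalization left 5 members in null against het, as did the most variable probe set, which left 1 in het against wt. The replicate number as a block gave 4 members and 2111 genes in null against wt, 4 and 201 in het against wt, and 10 and 1934 in null against het. The correlations of same-numbered arrays ran from -0.0272 to 0.143, so the numbers were not taken to pair the samples. The causes were not tested beyond what each alternative changes. Dim probe sets such as those of Scd1, Srebf2 and Mvd limit what can be seen of these genes.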

Other observations

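The isoprenoid branch takes farnesyl diphosphate to dolichol, ubiquinone and protein prenylation. Of its 12 genes measured 1 rose in null against wt and 0 fell, beside 7.6% and 8.09% of all genes. Nus1, a subunit of the enzyme that makes dolichol, read 443 to 517 on wt, 583 to 607 on het and 550 to 650 on null arrays. The wt arrays lay below all the others, with 0.28 in null against wt (SE 0.09, limma adjusted p = 0.0487), a call that 16 of 21 alternatives ended, among them leaving out any 1 array but null replicate 2 (0.21 to 0.32, adjusted p from 0.0547 to 0.171), and 0.27 in het against wt (adjusted p = 0.199). Coq2 and Pdss2, of ubiquinone synthesis, gave -0.31 and -0.39 in null against wt (adjusted p = 0.0634 and 0.0863), and the prenyltransferase subunit Rabggtb gave -0.22 (adjusted p = 0.149), none of them called. Dhdds, the partner of Nus1, fell by -0.41 in null against het (adjusted p = 0.0387).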
